A study of Mus musculus with 21 samples.

Results

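Wells named DC0 were set against wells named Fb (fibroblast) on the same plates, in a study of how dermal condensates arise in mouse skin. The members are the wells of libraries 1 to 7 whose column name starts with DC0 or Fb. These are 25 DC0 wells and 1371 Fb wells, 1396 of the 1967 wells in the single-cell table, and 7 of the 21 samples of the series. The other samples are single-cell libraries 8 and 9, which have no Fb well, and 12 bulk RNA samples that were not analysed here. Wells of both groups were sorted by flow cytometry for live cells from back skin of CD1 embryos at embryonic day 15, though some held few UMIs (the fewest were 679 in DC0 and 25 in Fb), and the labels name no treatment, genotype or reporter allele for either group. A library is a plate of sorted wells processed by SORT-seq, which counts RNA molecules by their molecular tags (UMIs). The labels do not define DC0, and bulk sample titles name a pre-DC group without saying whether it is the same. They also do not say whether a well's name came from the sort or from its place in a cluster. The series text does mention clusters, so if the names follow clusters of these cells, the genes below were partly used to form the groups, and each test then only sets the size of a difference against the spread between plates. Nothing in the labels ties the 7 libraries to separate animals or litters, so each p-value rests only on spread between plates, which may be technical. For 10192 genes that spread was pooled over genes, and 368 genes kept their own. Most p-values therefore do not measure how far the plates differ for that gene, and very small ones should be read with this limit.

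Dermal condensates are compact clusters of fibroblast-derived cells that form under epidermal placodes at the start of hair follicle development. They leave the cell cycle, take up signals from the epidermis (WNT, FGF and sonic hedgehog among them), send back BMP and FGF signals, and later become the dermal papilla, the signalling centre of the hair follicle. The fibroblasts around them divide and lay down collagen-rich matrix.

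The 7 DC0 sums held 2 to 6 wells and 20707 to 191382 UMIs (median 40031), and the 7 Fb sums held 132 to 220 wells and 2372569 to 6033442 UMIs. A count of 1 UMI therefore stood for 5.23 to 48.3 CPM (counts per 1000000 UMIs of the sum) in DC0, and a gene at 0 CPM in a DC0 sum was only below that resolution. The median well had 15479 UMIs in DC0 and 18509 in Fb. Within libraries, the median DC0 well had fewer UMIs than the median Fb well in 5 of 7. It had fewer genes detected in 6 of 7. In library 7 the largest DC0 well gave 93.5% of the DC0 UMIs and in library 1 85.5%, so these sums are close to single cells, and counts without libraries 1 and 7 are given with the main ones. The ribosomal share of UMIs was higher in DC0 than in Fb in 6 of 7 libraries and the mitochondrial share in 5 of 7 (4.60% to 9.57% against 5.24% to 6.82%), and the part of either in the differences was not tested.

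Marker genes differed in level between the groups. Most of the condensate markers are also on a list drawn up with the pattern of these data known, so their separation is a description. The 12 condensate markers together stood at 1586 to 8821 CPM in DC0 and at 340.4 to 417 CPM in Fb, with no overlap. The 10 fibroblast markers stood at 13689 to 24195 CPM in DC0 and at 46703 to 57840 CPM in Fb, so DC0 wells still carried fibroblast RNA, at a lower level. Of these 10, 9 were lower in DC0 and Twist2 was higher. None of the keratinocyte (8 tested), melanocyte (4), Schwann (1), endothelial (2), macrophage (1), skeletal muscle (1), erythroid (3) or neuron (1) markers was called higher or lower in DC0. With so few tested, the lack of calls says little about most of these cells. Kcnj8, Abcc9 and Acta2 of the 6 pericyte and smooth muscle markers tested were lower. So were Col9a1 of the cartilage markers and Pparg and Lpl of the adipocyte markers. Col9a1 lost its call in fits without library 3, 5 or 7, and Pparg in fits without any one of libraries 2 to 7. The keratinocyte markers summed to 0 to 393 CPM in DC0 and 48.5 to 524 CPM in Fb, with Trp63 at 0 in DC0. Schwann cell markers summed to 0 to 120 CPM in DC0 and 8.92 to 27.1 CPM in Fb, and 6 of the 7 were at 0 in DC0.

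Of 10560 genes tested, edgeR's quasi-likelihood test (plates as blocks, adjusted p under 0.05) called 421 higher in DC0 than in Fb and 589 lower. These are 3.99% and 5.58% of the genes tested, 9.56% in all. Among the higher genes were signals and transcription factors of the condensate, such as Bmp4, Bmp7, Fgf10, Foxd1 and Sox18. Among the lower genes were matrix genes of fibroblasts, such as Lox, Dpt, Aspn and Col1a2, and growth genes such as Igf2 and Mest. The median log2 fold change was 1.80 for the higher genes and -2.03 for the lower ones, against -0.05 over all genes tested. The lower median includes 98 genes with 0 UMIs in DC0, whose fitted values depend on the counts added to a group at 0. In all 7 libraries 137 of the higher genes were higher and 445 of the lower genes were lower. These 2 counts have unlike baselines and cannot be compared directly. In each library 32% to 49.8% of all genes tested lay above the Fb sum and 50.2% to 68% below it. With scaling factors taken from every gene tested, 273 were higher and 922 lower, and the median of all genes moved to -0.30. With wells weighted equally, 113 were higher and 1234 lower, with a median of -0.43. Without libraries 1 and 7 the test gave 341 higher and 473 lower genes, and without library 5, the deepest in DC0, it called 583 genes, 275 of them higher. Of 262 called genes on the gene lists or named by rule, 90 lost their call in at least 1 of the 7 fits that left out a library. Dll1 and Pdlim3 gave no value in 2 of the 7 fits, and the other 170, which kept their call in all 7, are said below to be stable. The most were lost without library 5 (71) and library 3 (56), and the fewest without library 7 (22).

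**Figure D1:**
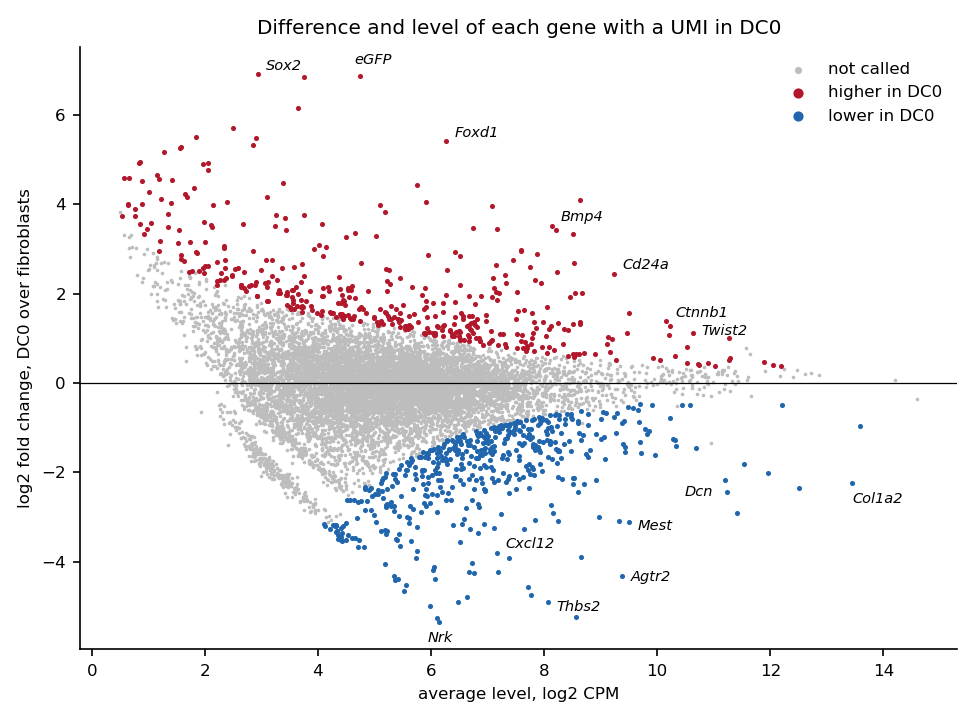
Each point is a gene with at least 1 UMI in DC0. The x axis is its average level in log2 CPM and the y axis its log2 fold change, DC0 over fibroblasts, from edgeR. Red points were called higher and blue points lower at an adjusted p under 0.05, and grey points were not called. Genes with 0 UMIs in DC0, 98 of them called lower, are not drawn. Their fitted values depend on the counts added to a group at 0.

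The direction was checked library by library as a description. The called higher genes lay above the Fb sum of the same plate for 95.2% of them in library 5, against 49.8% of all genes, and for 66.7% in library 7, against 44.7% of all genes. The called lower genes lay below it for 91.9% to 98.8% of them in each library, against 50.2% to 68% of all genes. Where single genes are said below not to overlap, the share of all genes tested without overlap is not given.

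Transcription factors of the condensate gave some of the largest differences. Foxd1, a forkhead factor of condensate and papilla cells (chromosome 13, 98354242 to 98359305, mm10), stood at 145 to 927 CPM in the 7 DC0 sums (median 275) and at 2.73 to 13.7 CPM in Fb (median 7.17). Every DC0 sum lay above every Fb sum. The log2 fold change was 5.41 (SE 0.36, adjusted p = 1.38e-48), a ratio of 42.6. Foxd1 had a UMI in 21 of the 25 DC0 wells, and the largest of them gave 20.4% of its UMIs, so it was not carried by a few wells. Prdm1, a repressor found in early dermal papilla cells, was at 92.4 to 758 CPM (median 290) against 8.36 to 16.3 CPM, without overlap, with a log2 fold change of 4.44 (SE 0.37). Trps1, a zinc finger repressor needed for normal hair, was at 169 to 871 CPM (median 580) against 46.2 to 91.9 CPM. Tbx18, a T-box factor of condensate mesenchyme, was at 185 to 1068 CPM (median 638) against 65.6 to 84.7 CPM.

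Sox2, Sox18 and the fluorescent protein eGFP were close to absent in Fb. Sox18, a factor of papilla and endothelial cells, stood at 31.4 to 559 CPM in DC0 (median 154) and at 0.33 to 10.5 CPM in Fb. The groups did not overlap, and the log2 fold change was 6.16 (SE 0.46, adjusted p = 1.67e-38). Sox2 was at 0 in library 3 and at 15.4 to 319 CPM in the other DC0 sums (median over all 152), against 0.26 to 2.44 CPM in Fb. It had a UMI in 10 of 25 DC0 wells. eGFP was at 30.8 to 534 CPM in DC0 and 0 to 3.20 CPM in Fb, and had a UMI in 15 of 25 wells. Whether the sort used a reporter is not given in the sources used here, and if it did, it set this difference. Of 27 genes tested in a list of condensate markers, 25 were higher and 0 lower, with a median log2 fold change of 3.09, and 18 of the 25 were stable. That list was drawn up with the pattern of these data known, so its count is no independent evidence of direction.

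Cxcr4, the receptor of the chemokine Cxcl12 and a marker of formed condensates, was not called. It had 4 UMIs in 4 DC0 wells (0 to 24.98 CPM per library, median 0) against 1.26 to 8.01 CPM in Fb, and the groups overlapped. The log2 fold change was 1.17 (SE 0.92, adjusted p = 0.542).

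**Figure D2:**
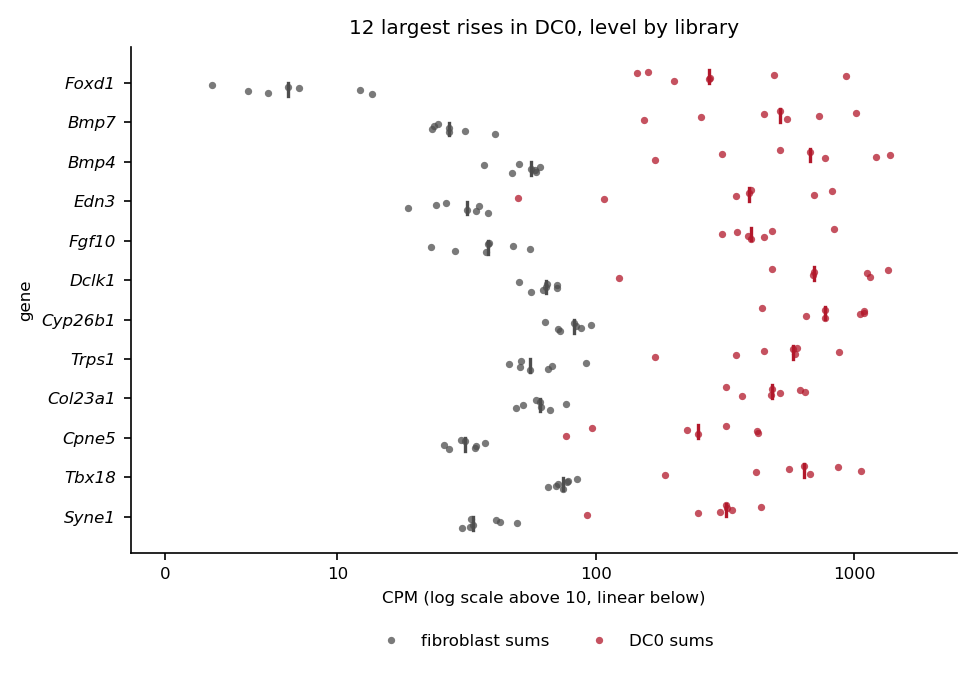
Level by library, in CPM, of the 12 genes with the largest rises in DC0 that were higher in all 7 libraries and had an average log2 CPM of at least 6. Red points are the 7 DC0 sums, grey points the 7 fibroblast sums, and vertical bars their medians. The x axis is logarithmic above 10 CPM and linear below. For each of these genes every DC0 sum lies above every fibroblast sum, with Edn3 closest to overlap.

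The upstream sequence of the 2 largest rises with an entry in RefSeq's promoter table, Foxd1 and Bmp4, is shown because it is where factors acting on these genes could bind. It ends at the base before the annotated gene and runs 5′ to 3′ on the gene's strand in GRCm38.p6. The Foxd1 stretch is chr13:98353995-98354241 on the plus strand and the Bmp4 stretch is chr14:46390670-46390919 on the minus strand.
Foxd1: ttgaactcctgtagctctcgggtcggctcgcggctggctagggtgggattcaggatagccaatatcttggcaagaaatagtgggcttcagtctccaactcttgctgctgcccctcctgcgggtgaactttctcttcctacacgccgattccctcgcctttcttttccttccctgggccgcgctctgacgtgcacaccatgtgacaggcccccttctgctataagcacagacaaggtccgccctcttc
Bmp4: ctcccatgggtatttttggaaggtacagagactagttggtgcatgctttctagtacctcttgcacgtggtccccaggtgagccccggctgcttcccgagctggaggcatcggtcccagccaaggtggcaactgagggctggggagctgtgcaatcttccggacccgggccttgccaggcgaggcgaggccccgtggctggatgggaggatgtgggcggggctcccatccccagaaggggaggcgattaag
Neither stretch holds, on either strand, the 3 letter strings searched, so nothing is in capitals: CTTTGA, the core recognised by LEF1 and TCF factors, CAGATG, an E-box bound by TWIST factors, and TGGGTGGTC, a site of GLI factors. Of 10560 genes tested, 7937 had an entry in that table, of which 250 bases were searched. An entry can lie inside the GENCODE gene and was still counted. For Sema3c and Svep1, among the largest falls, all 250 bases did, so they are not printed. CTTTGA was in 9.84% of the entries of higher genes, 9.84% of those of lower genes and 10.2% of all those tested (14% of the whole table). CAGATG was in 7.94%, 13.8% and 9.15% (14.5% of the whole table). TGGGTGGTC was in 2 of 315 entries of higher genes, 0.635%, and in 0.214% of those tested.

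The 12 largest rises included 4 genes of secreted signals, Bmp4, Bmp7, Fgf10 and Edn3, while the signals Fgf7, Tgfb2 and Kitl were lower. Bmp4 (chromosome 14, 46383520 to 46390669), a BMP ligand made by the condensate, stood at 169 to 1377 CPM in DC0 (median 676) and 37.1 to 61.0 CPM in Fb (median 56.1). Every DC0 sum lay above every Fb sum, with a log2 fold change of 3.52 (SE 0.24, adjusted p = 2.84e-47). A sole well gave 55.2% of the Bmp4 UMIs, and 18 of 25 wells had at least 1. Bmp7 was at 154 to 1014 CPM (median 519) against 23.3 to 40.8 CPM, with a log2 fold change of 3.96 (SE 0.27, adjusted p = 1.89e-45). Fgf10, a ligand made by mesenchyme for epithelial receptors, was at 309 to 838 CPM (median 400.5) against 23.0 to 55.7 CPM, the narrowest range of these signals across DC0 sums. Edn3, a signal to pigment cell precursors, was at 49.96 to 821 CPM (median 393) against 18.8 to 38.4 CPM.

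The 28 BMP genes tested gave 5 higher (Bmp4, Bmp7, Smad7, Fst and Smoc1) and 3 lower, among them Id2 and Smoc2, with a median log2 fold change of -0.08. Of these, 4 and 2 were stable. Smoc1, a matrix protein that modulates BMP signals, was 3.82 higher (SE 0.40), while its relative Smoc2 was 2.36 lower on the log2 scale (SE 0.35), so 2 near relatives went opposite ways. Fst, an activin and BMP antagonist, was 2.18 higher (SE 0.33). Id2, a target of BMP signalling, had a log2 fold change of -0.92 (SE 0.31, adjusted p = 0.0322), but lost its call without any one of libraries 1 to 6 (adjusted p of 0.0580 to 0.108), and Smad7 without library 2, 3, 4 or 5 (up to 0.316).

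Among 18 FGF genes tested 6 were higher (Fgf10, Fgfrl1, Spry1, Spred1, Il17rd and Flrt3) and Fgf7 was lower. Apart from Fgf10 and Fgfrl1, the higher members are known as feedback regulators or partners of FGF receptors. Spred1, an inhibitor of the RAS pathway below these receptors, was at 323 to 821 CPM (median 519) against 180 to 213 CPM, with a log2 fold change of 1.35 (SE 0.21, adjusted p = 1.62e-08) and no overlap. Fgf7, a fibroblast ligand for epithelial receptors, had 0 UMIs in DC0 and 14.1 to 19.7 CPM in Fb. Fgf10, Fgfrl1 and Spred1 were stable, while Fgf7 was lost without library 5 (adjusted p = 0.0917), Il17rd without library 3 (0.0776), and Spry1 and Flrt3 without 3 and 4 libraries (up to 0.255 and 0.227). Of 21 TGF-beta and activin genes 3 were higher and 3 lower, of which 2 and 1 were stable. Ltbp1, which stores latent TGF-beta in the matrix, had a median of 350 CPM in DC0 (46.2 to 1111) and 70.6 CPM in Fb (59.5 to 78.4). Smad3, a transducer of the pathway, was higher in all 7 libraries (log2 1.83, SE 0.37), while the ligand Tgfb2 had 0 UMIs in DC0, at least 2.91-fold lower against a floor of 3 counts over the group, and was lost without library 5 (adjusted p = 0.0678).

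WNT genes were called in both directions. Of 16 nuclear factors and targets, 4 were higher (Lef1, Ctnnb1, Ccnd1 and Twist2), all stable, and Lgr5 was lower, though not without library 5 (adjusted p = 0.133). Ctnnb1, the gene of beta-catenin, stood at 1159 to 3048 CPM in DC0 (median 1656) and 650 to 756 CPM in Fb (median 695). All DC0 sums lay above all Fb sums, with a log2 fold change of 1.27 (SE 0.15, adjusted p = 2.71e-15). Lef1, a nuclear partner of beta-catenin, was at 123 to 1601 CPM (median 439) against 59.4 to 109 CPM. Ccnd1, the gene of cyclin D1, was at 416 to 3203 CPM (median 1235) against 305 to 452 CPM, and the groups overlapped only through library 7, the lowest DC0 sum. Tle3, a corepressor that binds LEF and TCF factors, was at 145 to 325 CPM against 63.9 to 78.0 CPM, and the groups did not overlap.

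Secreted WNT inhibitors went both ways. Wif1 (log2 1.28, SE 0.23, adjusted p = 1.17e-06) and Dkk1 (1.28, SE 0.41, adjusted p = 0.0254) were higher, together with Frzb, Nkd1 and Tle3 of the same list of 24. Sfrp1, Sfrp2, Sfrp5 and Dkk2 were lower. Without library 5 Sfrp5 was not called (adjusted p = 0.0606), and Dkk1 was not called without library 1, 3, 5 or 7 (up to 0.237) nor Frzb without library 5 or 7 (up to 0.166). Sfrp2 was at 0 to 231 CPM in DC0 (median 24.98) and 241.5 to 302 CPM in Fb, without overlap, and its log2 fold change was -2.34 (SE 0.33, adjusted p = 1.67e-10). Of 23 ligands and receptors, Rspo3, which strengthens WNT signals, was higher, and Lgr5, Rspo1, Gpc3 and Gpc4 were lower. Rspo1 was at 0 to 56.1 CPM against 61.1 to 88.1 CPM, so 2 genes of the same small family were called in opposite directions (Rspo3 1.23, SE 0.39; Rspo1 -2.23, SE 0.59). Neither call held without library 5 (adjusted p = 0.247 for Rspo3 and 0.0594 for Rspo1), and that of Rspo3 was also lost without library 1 or 3.

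Hedgehog genes were called in both directions too. Ptch1, Gli1, Gli2 and Hhip were higher, of which Gli1, Ptch1 and Hhip are known targets of the pathway. The co-receptors Boc, Cdon and Gas1, the ligand-releasing protein Disp1 and the factor Gli3 were lower. These are 9 of the 12 members tested, and 6 of the 9 were stable. Gli2 was lost without library 3 (adjusted p = 0.0562), Ptch1 without library 1, 6 or 7 (up to 0.132), and Disp1 without any one of libraries 1 to 6 (up to 0.161). Gli1 was at 239 to 483 CPM (median 339) against 54.0 to 71.2 CPM, and Gas1 at 39.9 to 561 CPM (median 193) against 648 to 806 CPM. Neither overlapped between the groups. The log2 fold changes were 2.35 (SE 0.27) for Gli1 and -1.71 (SE 0.21) for Gas1. Hhip was uneven among DC0 sums, from 0 CPM in libraries 4 and 6 to 718 CPM in library 1, and 42.4% of its UMIs came from a sole well.

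Notch genes were called on few molecules. Dll1, Hey1 and Heyl were higher and Jag1 lower of 18 tested. The ligand Dll1 had 4 UMIs in 3 of the 25 DC0 wells (0 to 74.9 CPM per library, median 0), against 0.17 to 1.39 CPM in Fb, and the groups overlapped. Heyl, a target of Notch, was at 0 CPM in 3 libraries and at up to 323 CPM in library 3 (median 31.4), against 5.45 to 13.7 CPM in Fb. Hey1 was at 0 to 49.96 CPM against 7.25 to 9.66 CPM. Dll1 was called in the 5 fits that gave a value and had none without library 4 or 6. Jag1 lost its call whichever library was left out (adjusted p of 0.0682 to 0.182), and Hey1 without library 5 (0.124).

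The other large rises were of genes with varied roles. Cyp26b1 (chromosome 6, 84571414 to 84593908), an enzyme that breaks down retinoic acid, was at 439 to 1096 CPM in DC0 (median 773) and 63.9 to 96.1 CPM in Fb. All DC0 sums lay above all Fb sums and the log2 fold change was 3.33 (SE 0.21, adjusted p = 2.75e-53). Dclk1, a microtubule-associated kinase, was at 123 to 1352 CPM (median 702) against 50.3 to 71.1 CPM, with a log2 fold change of 3.43 (SE 0.23). Syne1, which links the nucleus to the cytoskeleton, was at 92.4 to 435 CPM (median 319) against 30.2 to 49.5 CPM. Library 7 was the lowest DC0 sum for both, as it was for 7 of the 12 largest rises. Cpne5, a calcium-dependent membrane-binding protein, was at 77.0 to 423 CPM (median 250) against 25.8 to 37.2 CPM, and Col23a1, a transmembrane collagen, was at 319 to 646 CPM (median 483) against 49.3 to 76.5 CPM.

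Surface and guidance molecules were called in both directions. Of 31 adhesion genes, Cd44, Cd24a and Sdc1 were higher and Cadm1, Cd47, Itga4, Tenm3, Tenm4 and Sdc2 lower, all stable but Itga4 and Sdc2 (adjusted p up to 0.213 and 0.196 without library 5). Cd24a, a small surface glycoprotein, was at 462 to 1965 CPM (median 1333) against 143.9 to 231 CPM, without overlap, and was 2.45 higher (SE 0.18, adjusted p = 6.35e-40). Of 33 guidance genes 6 were higher (Sema3d, Sema6a, Nrp2, Robo1, Robo2 and Epha7) and 5 lower (Sema3c, Nrp1, Ntn1, Efna5 and Ephb3). Robo1, Robo2, Ntn1 and Ephb3 were not stable, the first without any library but library 3 (adjusted p up to 0.240). The semaphorin receptor Nrp2 was at 84.2 to 559 CPM in DC0 (median 279.3) and 52.6 to 82.2 CPM in Fb, with all DC0 sums above. Its relative Nrp1 was at 74.9 to 676 CPM (median 281) against 604 to 698 CPM, with an overlap, and fell by 1.24 on the log2 scale (SE 0.20, adjusted p = 9.04e-08).

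The 12 largest falls, matrix genes such as Lox and Svep1 as well as genes of other roles, included several at or near 0 in DC0. Lox, the enzyme that crosslinks collagen and elastin, had 0 UMIs in all 7 DC0 sums and 117 to 192 CPM in Fb (median 154). This was at least 23.2-fold lower, taking 3 counts over the group as the floor (adjusted p = 7.12e-17). Sema3c, a secreted guidance protein (chromosome 5, 17574281 to 17730268), also had 0 UMIs, against 56.1 to 99.4 CPM in Fb, at least 12.1-fold lower. Svep1, an adhesion protein of the matrix (chromosome 4, 58042442 to 58206859), had 0 UMIs against 67.1 to 96.2 CPM, at least 12.3-fold lower. Nrk, a kinase gene on chromosome X, had 1 UMI, and the pooled ratio of Fb over DC0 was 38.2 (95% exact counting interval 6.86 to 1511). Npas3, a transcription factor, also had 1 UMI (ratio 37.0, interval 6.63 to 1460). The intervals cover counting error only.

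Falls of genes with more UMIs had the same lack of overlap. Dpt, dermatopontin of the dermal matrix (chromosome 1, 164796644 to 164824266), was at 0 to 79.8 CPM in DC0 (median 15.4) and 440.5 to 733 CPM in Fb (median 562), with a log2 fold change of -5.23 (SE 0.37, adjusted p = 1.75e-42). Thbs2, an adhesive protein that regulates collagen fibrils, was at 0 to 42.1 CPM against 347 to 444 CPM, a log2 fold change of -4.91 (SE 0.41). Aspn, a small proteoglycan, was at 0 to 42.1 CPM against 235 to 323 CPM, and Islr, a secreted protein of mesenchymal cells, at 0 to 39.9 CPM against 236 to 343 CPM. C1qtnf3, Fibin and Tgfbi had 2 UMIs each, and their pooled ratios of Fb over DC0 were 25.8 (interval 7.13 to 213), 27.6 (7.64 to 228) and 18.1 (5.01 to 150).

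**Figure D3:**
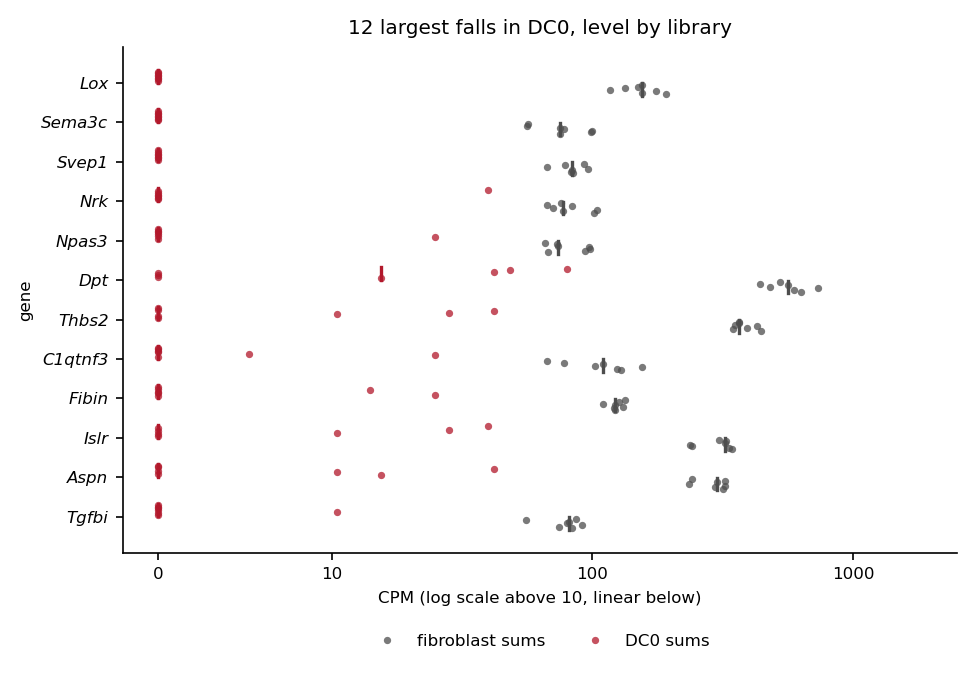
Level by library, in CPM, of the 12 genes with the largest falls in DC0 that were lower in all 7 libraries and had an average log2 CPM of at least 6. Red points are the 7 DC0 sums, grey points the 7 fibroblast sums, and vertical bars their medians. The x axis is logarithmic above 10 CPM and linear below. No DC0 sum reaches a fibroblast sum, and Lox, Sema3c and Svep1 are at 0 in all 7 DC0 sums.

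More matrix genes were called lower than higher in each list but that of the basement membrane. Of 22 collagen chain genes outside the basement membrane 10 were lower, among them Col1a1, Col1a2, Col3a1 and Col5a1, and Col23a1 was higher, and 8 of the 10 and Col23a1 were stable. The median log2 fold change was -1.16, or -0.90 with genes at 0 set to their bound. Col1a2 was at 2273 to 5586 CPM in DC0 and 13921 to 20700.1 CPM in Fb, a log2 fold change of -2.23 (SE 0.11, adjusted p = 1.36e-87). All 25 DC0 wells had a Col1a2 UMI, so the chain was reduced and not absent. Of 9 small proteoglycans 6 were lower (Dcn, Bgn, Lum, Ogn, Aspn and Prelp) and 0 higher, with a median of -2.34, and all but Prelp were stable (adjusted p up to 0.356 without library 5). Dcn, decorin, which binds collagen fibrils, was at 319 to 1053 CPM against 3115 to 4180 CPM. Of 23 elastic fibre and crosslinking genes 11 were lower, Lox, Loxl1, Fbn1 and Fbn2 among them, and the secreted Fbln2 and Loxl2 were higher, and 9 and 2 of them were stable.

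Basement membrane genes gave 6 higher (Col4a1, Col4a2, Lama2, Nid1, Frem1 and Egfl6) and 2 lower (Lama4 and Sparc) of 17, although the median of the list was -0.34. All but Nid1 were stable (adjusted p up to 0.140 without library 5). Frem1, a protein of the epidermal basement membrane zone, was at 253 to 674 CPM (median 386) against 113 to 151 CPM, without overlap (log2 1.57, SE 0.24). Lama2, a laminin chain, was at 84.3 to 475 CPM (median 219.5) against 54.7 to 71.1 CPM, and its relative Lama4 at 0 to 120 CPM against 188 to 280 CPM. Both pairs of ranges were separate, in opposite directions. Of 20 matricellular genes 8 were lower (Fn1, Postn and Vcan among them), and Spon1 and Wisp1 were higher, all of them stable. Wisp1, a secreted WNT target, was at 231 to 1377 CPM (median 924) against 143 to 227 CPM, with all DC0 sums above. Proteases and their inhibitors gave 10 lower and 3 higher (Adamts12, Mmp2 and Pappa) of 25, but 5 of the 10 and none of the 3 were stable (adjusted p up to 0.377 for Adamts12 and 0.229 for Mmp2, and up to 0.453 for Pappa without library 3).

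**Figure D4:**
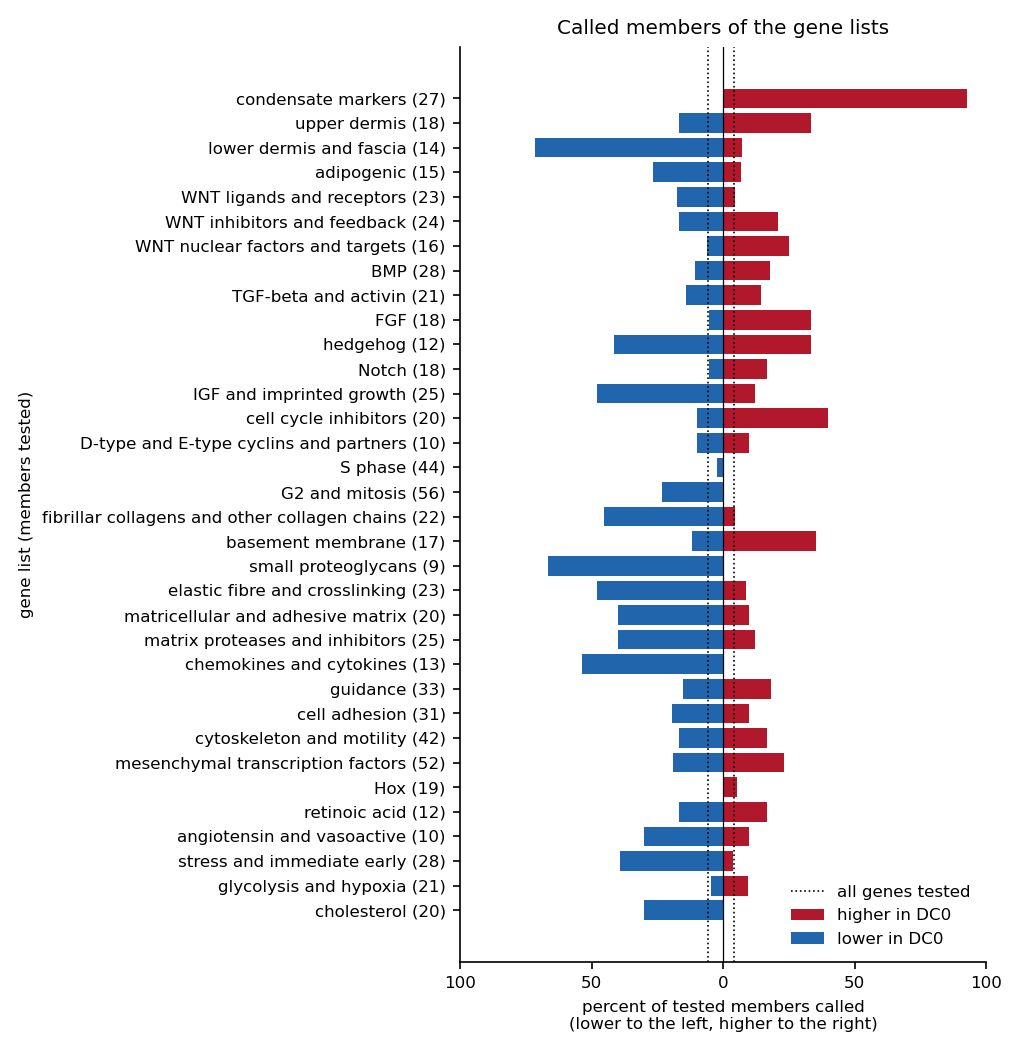
Bars give, for each gene list, the percent of its tested members (number in parentheses) that were called higher in DC0 (red, to the right) or lower (blue, to the left). Dotted lines mark the same percent over all genes tested, 3.99% higher and 5.58% lower. Condensate markers stand at the top with 25 of 27 higher, and lower dermis, small proteoglycans and chemokines have the longest blue bars.

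Of 14 genes of the lower dermis and fascia tested 10 were lower, with a median log2 fold change of -2.30 (-2.12 with the gene at 0 set to its bound). They include Dlk1, Cd34, Cxcl12, Postn and Thbs2, and Igf1 was the sole member called higher. All were stable but Ly6a, which had 1 UMI in DC0. Dcn, Lum, Postn, Thbs2, Dlk1, Gpc3 and Cxcl12 are also counted as lower in other lists, so these falls are not separate from those. Dlk1, a marker of reticular dermis and preadipocytes, was at 400 to 1547 CPM against 2555 to 4429 CPM (log2 -2.18, SE 0.14). Of 18 upper dermis genes 6 were higher (Twist2, Lef1, Dkk1, Prdm1, Cyp26b1 and Trps1) and 3 lower (Lrig1, Ntn1 and Rspo1), and Lef1, Dkk1, Prdm1 and Trps1 are also on the condensate list. Of these 5 and 1 were stable.

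Adipogenic genes gave 4 lower (Pparg, Lpl, Pdgfra and Dlk1) and Ebf3 higher of 15, with Pparg (adjusted p up to 0.281 without library 5) and Ebf3 (up to 0.184 without library 3) not stable. Lpl, the lipase of fat cells, was at 0 to 47.0 CPM in DC0 (median 28.1) and 122 to 164 CPM in Fb, without overlap. Of 10 angiotensin and vasoactive genes Agtr1a, Agtr2 and Ptger4 were lower and Edn3 higher. Agtr2, an angiotensin receptor of embryonic mesenchyme (chromosome X, 21484544 to 21489164), was at 15.4 to 199.5 CPM (median 48.3) against 836 to 1403 CPM, a log2 fold change of -4.32 (SE 0.26, adjusted p = 3.00e-59). Its partner receptor Agtr1a had 1 UMI, with a pooled ratio of 23.4 (interval 4.20 to 926), and Ptger4, with 0, was lost without library 3 or 5 (adjusted p up to 0.195). Of 13 chemokines and cytokines 7 were lower and 0 higher, and all but Cxcl2 were stable (adjusted p = 0.0829 without library 5). Their median was -3.07, or -1.60 with the 3 genes at 0 set to their bounds. Cxcl1 was at 0 to 61.6 CPM against 163.5 to 256.7 CPM, Cxcl12 at 0 to 48.3 against 160 to 214 CPM, and Kitl, the ligand of the receptor KIT on pigment cell precursors, at 0 to 199.5 against 232 to 383 CPM.

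Of 25 IGF and imprinted genes 12 were lower and 3 higher (Igf1, Igfbp4 and Nnat), with a median log2 fold change of -1.17, and 10 of the 12 were stable. Igf2, a fetal growth factor (chromosome 7, 142650766 to 142666816), was at 375 to 1111 CPM in DC0 (median 688) and 3523 to 5814 CPM in Fb, a log2 fold change of -2.90 (SE 0.15, adjusted p = 1.24e-83). Every DC0 sum was below every Fb sum, and all 25 DC0 wells had an Igf2 UMI. H19, the RNA next to Igf2, was at 821 to 3003 CPM against 3007 to 5944 CPM (log2 -1.81, SE 0.14). Mest was at 84.3 to 196.5 CPM against 904 to 1419 CPM. Igf1, by contrast, was at 92.4 to 869 CPM against 95.6 to 203.8 CPM, higher in 5 of 7 libraries (log2 1.23, SE 0.24).

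Some cell cycle inhibitors were higher and some mitotic genes lower, with wide spread between DC0 sums. Of 20 inhibitors 8 were higher (Cdkn1a, Rb1, Btg1, Gadd45a, Gadd45g, Plk2, Ccng2 and Trp53inp1) and 2 lower (Btg2 and Gadd45b). Of these Btg1, Gadd45g, Plk2 and Btg2 were stable. Cdkn1a, a kinase inhibitor that halts the cell cycle (chromosome 17, 29090976 to 29100727), was at 660 to 2366 CPM in the DC0 sums of libraries 1 to 6 and at 46.2 CPM in library 7, against 27.7 to 74.2 CPM in Fb. The log2 fold change was 4.09 (SE 0.72, adjusted p = 0.0192). It was 4.48 without library 7 (adjusted p = 1.25e-91), and with library 7 in the fit the call was lost without library 1, 3, 4, 5 or 6 (adjusted p of 0.0521 to 0.0798). In the 4 libraries of the shared run alone it was 3.33 (adjusted p = 0.297). Btg1, an antiproliferative gene, was at 253 to 1207 CPM (median 600) against 194 to 318 CPM (log2 1.33, SE 0.20).

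The 56 genes of G2 and mitosis gave 13 lower and 0 higher, with a median of -0.72, but 3 of the 13 (Ube2c, Cks2 and Tubb4b) were stable. For the other 10 the highest adjusted p in a fit without a library ranged from 0.0557 to 0.287. Ube2c, a ubiquitin enzyme of mitotic exit, was at 0 to 340 CPM in DC0 (median 56.2) and 217 to 299 CPM in Fb, lower in 6 of 7 libraries (log2 -1.36, SE 0.30, adjusted p = 0.000154). The 44 S phase genes gave Cdca7 lower and 0 higher, 2.27% of them called, under the 9.56% of all genes tested, and Cdca7 was lost without library 1, 2, 3, 4 or 6 (adjusted p up to 0.104). Mki67, a marker of dividing cells, was at 39.9, 0, 112, 28.1, 402, 49.96 and 1617 CPM in the DC0 sums of libraries 1 to 7, against 284 to 503 CPM in Fb. It was lower than Fb in 5 libraries and higher in 2, and was not called (log2 -0.89, SE 0.82, adjusted p = 0.667). Without library 7 it was lower (log2 -1.68, adjusted p = 1.13e-07), and without libraries 1 and 7 too (-1.49, adjusted p = 1.21e-05) and in the 3 libraries outside the shared run (-4.12, adjusted p = 7.26e-06). The library 7 sum, 93.5% from a sole well, thus had the lowest Cdkn1a and the highest Mki67 of the 7.

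Transcription factors of mesenchyme gave 12 higher and 10 lower of 52, of which 9 and 7 were stable. Sox11, a factor of immature cells, was at 246 to 1348 CPM (median 998) against 104 to 143 CPM, and was 2.68 higher on the log2 scale (SE 0.21, adjusted p = 5.01e-36) with no overlap. Sox4, its close relative, was 2.05 higher (SE 0.25). Prrx1 was at 631 to 1516 CPM against 385 to 562 CPM, also without overlap. Twist2, a factor of dermal fibroblasts, was at 1186 to 3815 CPM against 884 to 1109 CPM. The lower factors were Nfia, Nfib, Nfic and Nfix, which are the 4 nuclear factor I genes, with Osr1, Osr2, En1, Irx1, Tshz2 and Zeb1. Nfic, En1 and Tshz2 were not stable (adjusted p up to 0.141, 0.201 and 0.209 without library 5). Nfib was at 0 to 293 CPM in DC0 (median 56.1) and 606 to 834 CPM in Fb, a log2 fold change of -3.00 (SE 0.24, adjusted p = 4.16e-32). Hoxd9 was the sole Hox gene called, of 19, and was lost without library 2, 4, 5 or 6 (adjusted p up to 0.628).

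Stress and immediate early genes gave 11 lower and 1 higher (Hspa1a) of 28, with 8 of the 11 stable and Hspa1a lost without library 3 (adjusted p = 0.81). Fos, an immediate early factor that also responds to cell dissociation, was at 175 to 862 CPM against 945 to 1434 CPM, without overlap (log2 -1.02, SE 0.17). Hspa5, a chaperone of the endoplasmic reticulum, fell by 1.24 on the log2 scale (SE 0.16). Cholesterol synthesis genes gave 6 lower, among them Hmgcs1, Sqle, Idi1, Fdft1 and Cyp51, and 0 higher of 20, with a median of -0.99, but Idi1 and Cyp51 alone were stable. Glycolysis and hypoxia genes gave Vegfa and Ndrg1 higher and Tpi1 lower of 21, none of them stable (lost without library 3, 4 and 5 in turn, adjusted p of 0.132, 0.0612 and 0.0953). Cytoskeleton genes gave 7 higher and 7 lower of 42, of which 4 and 4 were stable. Tmsb4x, the gene of an actin-binding peptide, was at 724 to 3091 CPM against 543 to 823 CPM and overlapped through library 7. Over all 34 lists 93 of 721 distinct members tested were higher and 160 lower, which together are 35.1%, but the lists were drawn up for genes known to vary in dermis.

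Single wells showed how far the sums stand for their cells. The 12 largest rises summed to 1535 to 12613 CPM in the 21 DC0 wells with at least 3000 UMIs (median 5965) and to 0 to 8147 CPM in 1155 Fb wells (median 462). A sole Fb well reached the DC0 median. The 12 largest falls summed to 0 to 225 CPM in DC0 wells (median 32.9) and 0 to 12202 CPM in Fb wells (median 961), and 34 Fb wells lay at or below the DC0 median. The ranges overlapped in both sums: 66 Fb wells lay at or above the lowest DC0 well for the rises, and 175 at or below the highest DC0 well for the falls. As these genes were picked from the same wells, the values are a description with no test.

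**Figure D5:**
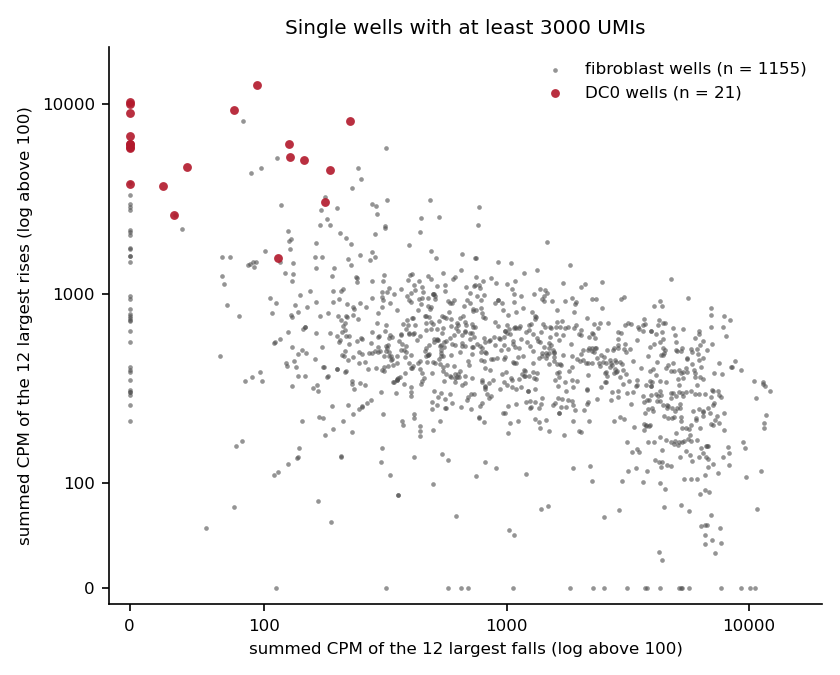
Each point is a well with at least 3000 UMIs, 21 DC0 (red) and 1155 fibroblast (grey). The x axis is the summed CPM of the 12 largest falls and the y axis that of the 12 largest rises, both logarithmic above 100 CPM and linear below. DC0 wells gather at the upper left, and a few fibroblast wells lie among them.

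DC0 wells of library 8, which had no part in the comparison, gave the same measure in other cells of the same name. The Fb sums were the same ones that gave the calls, so the shares below were partly fixed in advance. If names follow clusters formed over all plates, they were fixed further. Well numbers of DC0 in library 8 ran from 123 to 246, while in libraries 1 to 7 the longest run of neighbouring DC0 numbers was 1. Whether wells were named in the same way on these plates was not tested. That plate held 124 DC0 wells (median 12610.5 UMIs) and no Fb well, so they were set against the Fb sums of libraries 1 to 7, and plate and population cannot be told apart there. Of the 421 higher genes 381 (90.5%) lay above all 7 Fb sums in library 8, against 31.3% of all genes tested. Of the 589 lower genes 544 (92.4%) lay below all 7, against 31.7% of all genes. On the opposite side lay 7 of the higher genes (1.66%) and 4 of the lower genes (0.679%). Foxd1 was at 480 CPM there, Bmp4 at 462, Cyp26b1 at 653 and Twist2 at 2600, all above the 7 Fb sums. Lox was at 4.74 CPM, Sema3c at 9.49 and Svep1 at 6.10, all below.

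The labels put 4 of the 7 libraries in a shared sequencing run. Those 4 alone gave 251 higher and 364 lower genes, and the 3 other libraries alone 118 and 110. A test of the difference between the shared run and the 3 other libraries called 2 genes, 0.0189% of 10560. With 4 plates against 3 and few DC0 wells on each, so few calls say little about how alike they are. Eln, elastin, was at 46.2 to 345 CPM in DC0 in the shared run, around the Fb levels of 299 to 422 CPM or below, and at 674 to 997.5 CPM in the other libraries, above Fb at 310 to 393 CPM. The difference in log2 fold change was -2.49 (SE 0.44, adjusted p = 0.000118). The other, 2810417H13Rik, a gene of replicating cells, had 136 UMIs in DC0 in the shared run and 0 in the other libraries, where Fb stood at 232 to 284 CPM (adjusted p = 6.72e-05). The fitted size of that difference, 12.5, depends on the counts added to a group at 0.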

How the data were processed

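Single cells of mouse back skin were measured by SORT-seq on plates, here called libraries. The authors deposited 1 table of 20284 genes and 86 spike-in rows by well, and spike-ins were left out, as were 447 wells of other names or libraries. The deposited values are estimated counts: distinct UMIs corrected for chance reuse of a tag, a step read from the values, which follow the correction for a space of 4096 tags (0 of 6457075 values above 0 in the wells used were off by more than 0.005). Rounding to integers altered 14.0% of values above 0. Per the submitters' processing notes TopHat2 2.0.3, Bowtie2, Cufflinks 2.1.1, BWA 0.6.2-r126 and build mm10 were used, with no role given. No wells were identical, and no doublet caller was run, since each well was sorted.

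Counts were summed per library and name (DC0 or Fb), which gave 14 sums. The depth of the DC0 sums sets the precision. Genes were kept by filterByExpr and tested with edgeR 4.0.16 (quasi-likelihood, library as a block, R 4.3.3), with Benjamini-Hochberg adjustment over all genes tested and a threshold of 0.05. The SE given with a log2 fold change is its absolute value divided by the square root of the test's F statistic. It was worked back from the test and is not an error estimated separately from the plates. After the data were seen, and because simulated data showed a bias, TMM factors were taken from the 745 genes averaging at least 200 CPM, and the spread was estimated robustly, since the default pooled it over all genes. With the robust option 368 of 10560 genes kept a spread of their own. The libraries are plates, so their numbers pair the sums: deviations of DC0 and Fb from their means correlated by 0.126 to 0.422 in all 7 libraries over these 745 genes. The fits were tested on simulated data.

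Named genes were the 12 largest rises and 12 largest falls (adjusted p under 0.05, log2 change 1 or more, 1 direction across all 7 libraries, average log2 CPM of at least 6), up to 4 members per list with the smallest p, and a fixed set of condensate and cell cycle genes. Other called members of a list are named to complete its count, chosen after their values were seen. Some members are not reported here. The members and lists were chosen with earlier results of these data known. Coordinates are from GENCODE M21 on GRCm38 (mm10). Alternatives used DESeq2 1.42.0, limma 3.58.1, other scaling, filters, depths and libraries. Tables were handled with Python 3.11.15, numpy 2.4.6 and pandas 2.3.3, and figures drawn with matplotlib 3.10.9.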

Additional observations from a re-analysis of the deposited data

Results flagged for a closer look

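In 4 of 39 genes checked, 1 library stood apart from the other 6 in its log2 ratio of DC0 over Fb (20 CPM added to both). By chance about 1 in 20 would be picked out. Dclk1 had a ratio of 0.9137 in library 7 against 2.83 to 4.01 in the others, and Syne1 1.162 in library 7 against 2.35 to 2.89. Both remain higher than Fb in that library. Nrk had -0.6776 in library 1 against -2.63 to -2.12, and Npas3 -1.336 in library 6 against -2.55 to -2.10. Each of these genes had a sole UMI in DC0, in that library.

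For 2 genes the difference between DC0 and Fb was itself different between the shared sequencing run and the other libraries by edgeR's test of the difference. The value for 2810417H13Rik was 12.52 on the log2 scale, which depends on the counts added to a group at 0, and that for Eln was -2.487.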

How the results depend on the processing

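Of 128 called genes refitted, 61 stayed called in every alternative that gave a value. The calls rest on 25 DC0 wells, and depth in DC0 limits what could be called: 2137 genes had an unadjusted p under 0.05. Against 1010 genes called, 421 of them higher, the counts were 1195 and 273 with TMM factors from all genes tested, 544 and 221 with libraries of at least 4 DC0 wells, 290 and 129 of 1103 tested with Fb sums thinned to the DC0 totals, 228 and 118 in the 3 libraries outside the shared run, 615 and 251 in the shared run, 228 and 118 with wells thinned to 3000 UMIs, and 1347 and 113 with wells weighted equally. The higher share of calls was 41.7%, 22.8% with TMM factors from all genes, 51.8% in the other libraries and with thinned wells, and 8.39% with wells weighted equally, where the median of all genes was -0.43. Leaving out 1 library gave 583 to 976 called genes, 275 to 407 of them higher, lowest without library 5. The fit with no replicate block gave 1185 called genes, 480 of them higher, and without pairing by plate 3 of 123 named calls were lost. DESeq2 gave 753 and 350.

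Of the list members, 93 were higher and 160 lower. These were 55 and 66 with thinned Fb sums, 51 and 61 in the other libraries, 52 and 51 with thinned wells, and 48 higher with wells weighted equally. Leaving out 1 library gave 68 to 94 and 118 to 169. The run difference gave 2 to 10 genes, the most without library 6. Cxcr4, not called, went to -0.13 with wells weighted equally. In the other libraries 51 of 127 named calls were lost and with thinned wells 43 of 116. The cause was not tested. The settings on scaling genes, robust spread and libraries 1 and 7 were added after seeing the data.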

Other observations

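The following 7 genes, known for roles in collagen folding or in the endoplasmic reticulum, are on no list used above and were picked because they were lower in DC0. How many genes of these roles were not called was not counted. Serpinh1, a collagen chaperone, was at 554 to 1497 CPM in DC0 and 1991 to 2910 CPM in Fb (log2 -1.45). Creb3l1, a factor that drives secretory genes in matrix-making cells, was at 0 to 96.6 CPM against 328 to 456 CPM (log2 -2.91, SE 0.31). Fkbp10, a folding enzyme of collagen, was at 0 to 96.6 CPM against 147 to 194 CPM, and Leprel4, a partner of collagen prolyl hydroxylation, at 0 to 39.9 against 105 to 166 CPM. Ckap4, Rcn3 and P4hb, proteins of the endoplasmic reticulum, had log2 fold changes of -2.17, -2.25 and -1.35. Each of these 7 genes was called lower, was lower in 7 of 7 libraries and did not overlap between the groups. This describes genes picked for being lower and is no result about their roles. In each library 50.2% to 68% of all genes tested lay below the Fb sum. Of the 589 genes called lower, 445 were lower in all 7 libraries. The share of all genes tested without overlap is not given.

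The next 5 genes were likewise picked because they were higher. Nrtn, a ligand of the GDNF family, was at 15.4 to 281 CPM against 8.36 to 13.5 CPM (log2 3.36), and Avpr1a, a vasopressin receptor, at 30.8 to 225 against 4.64 to 6.74 CPM (log2 3.76). Thy1, a surface protein of fibroblasts, was at 1017 to 3146 against 583 to 942 CPM (log2 1.07), so it was higher in DC0 while most fibroblast markers were lower. Col7a1, the anchoring fibril collagen under the epidermis, was at 262 to 1264 against 113 to 200 CPM (log2 1.93). None of these 4 overlapped, which likewise only describes genes picked for being higher. Ngfr, a neurotrophin receptor also made by Schwann cells, was at 48.3 to 999 CPM against 68.3 to 120 CPM (log2 2.30), with an overlap.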
